A study of Homo sapiens with 5 samples.

Results

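The genes described here encode AGR2 and its paralogue AGR3, the trefoil factors TFF1, TFF2 and TFF3, the transcription factor SPDEF, the membrane mucins MUC1, MUC13 and MUC16, and the mucus protein FCGBP. These 10 genes of mucus-secreting epithelium were chosen by name, with their measured levels and differences on these arrays already known, so every level and difference of theirs is given as a description without a test. A gene was measured when an array feature carried its symbol alone, and with several such features the brightest was to be taken. That held for 9 of the 10 genes among 14232 genes in all, each with 1 feature, and MUC16 is not analysed here.

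Expression was measured in human lung cancer cell lines on 5 Affymetrix exon arrays, 1 per sample. A549, a lung adenocarcinoma line that per the submitters has lost LKB1 function and has raised NEDD9, was profiled with short hairpin 1 against NEDD9, with short hairpin 2 against NEDD9 (n = 2 for knockdown) and as a control (n = 1). CRL-5907, which per the submitters has wild-type LKB1 and little NEDD9, was profiled with NEDD9 overexpression (n = 1) and as a control (n = 1). The labels do not say whether the controls carried an empty or non-targeting construct, whether cells were clones or pools, or whether arrays came from separate cultures.

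AGR2 is a protein disulfide isomerase of the endoplasmic reticulum that is needed for mucin folding in goblet cells in mice, and AGR3 is its close relative. Trefoil factors are small cysteine-rich peptides co-secreted with mucins that protect and repair mucosal surfaces, and FCGBP is a large mucus protein that binds TFF3. SPDEF drives goblet cell differentiation and the expression of several of these genes in mouse airways, whereas MUC1 and MUC13 are mucins anchored in the apical membrane of epithelial cells.

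The sequences before the annotated starts of AGR2 and FCGBP, which were higher in A549, and of MUC1 and MUC13, which were higher in CRL-5907, are shown first because, of the genes with a window in the RefSeq table, these 4 differ most between the lines. Each is the 250 bases before the start from RefSeq on GRCh38.p14, read 5′ to 3′ on the gene's own strand, and MUC1 has a further entry a few bases away. Capitals mark matches to the TATA box TATAAA, the full cAMP response element TGACGTCA, the forkhead motifs TGTTTAC and TATTTAC, the E-box CACCTG and the SPDEF-type core CCGGAT, searched on both strands. None of these motifs overlapped another in the 4 windows.

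AGR2 (chr7:16805000-16805249, minus strand): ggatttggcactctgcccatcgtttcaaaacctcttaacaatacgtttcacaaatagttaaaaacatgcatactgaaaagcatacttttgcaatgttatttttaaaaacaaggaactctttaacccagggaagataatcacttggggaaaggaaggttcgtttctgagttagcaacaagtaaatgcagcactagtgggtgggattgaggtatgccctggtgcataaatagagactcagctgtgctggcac
FCGBP (chr19:39934635-39934884, minus strand): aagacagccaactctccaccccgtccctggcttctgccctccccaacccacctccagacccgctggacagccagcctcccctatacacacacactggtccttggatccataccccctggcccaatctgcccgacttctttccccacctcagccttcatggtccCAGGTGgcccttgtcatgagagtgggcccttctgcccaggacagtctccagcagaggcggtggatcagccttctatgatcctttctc
MUC1 (chr1:155192916-155193165, minus strand): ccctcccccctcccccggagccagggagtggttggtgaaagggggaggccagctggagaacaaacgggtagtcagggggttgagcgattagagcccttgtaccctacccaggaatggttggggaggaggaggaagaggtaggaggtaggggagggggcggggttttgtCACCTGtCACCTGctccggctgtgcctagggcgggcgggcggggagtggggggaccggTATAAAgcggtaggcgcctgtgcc
MUC13 (chr3:124934752-124935001, minus strand): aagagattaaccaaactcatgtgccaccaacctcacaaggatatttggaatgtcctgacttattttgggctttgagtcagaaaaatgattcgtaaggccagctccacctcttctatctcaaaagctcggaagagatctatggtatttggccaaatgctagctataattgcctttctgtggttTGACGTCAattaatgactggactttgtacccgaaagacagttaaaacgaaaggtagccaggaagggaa

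The AGR2 window held none of these letters, which says nothing about the factors themselves. The FCGBP window held 1 E-box and the MUC1 window held 2 E-boxes and a TATA box. The MUC13 window held 1 full cAMP response element, 68 to 61 bases before the start. Of 35116 windows of this length in the RefSeq table, 17.5% held the E-box, 10.7% the TATA box, 5.27% a forkhead motif, 5.85% the SPDEF-type core and 1.65% the full cAMP response element. The GC content was 40.4% for AGR2, 41.6% for MUC13, 60.8% for FCGBP and 66% for MUC1, beside a median of 58% over all windows. Windows were found for 7 of the 10 genes, and the SPDEF window held 1 forkhead match.

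All expression values below are normalised log2 levels (RMA), in which a difference of 1 is 2-fold. The targeted gene followed the labels in direction. NEDD9 was at 8.35 and 8.52 with hairpins 1 and 2 against 8.94 on the A549 control, differences of -0.587 and -0.411. Hairpin 1 just passed 1.5-fold and hairpin 2, at 1.33-fold lower, did not. By the rule used below, 1.5-fold with both hairpins, NEDD9 itself was therefore not called lower. With overexpression NEDD9 was at 9.49 against 4.66 on the CRL-5907 control. Correlations over features were 0.989 to 0.991 among the A549 arrays, 0.989 for the CRL-5907 pair and 0.948 to 0.953 across lines. A level was read against the median of its array over named features (5.69 to 5.85), because detection above background was not available. To judge a difference, the SD of the hairpin 2 minus hairpin 1 difference was taken over genes of similar level, and is called the hairpin spread below. It was 0.14 to 0.18 for the members above the median, and it includes any true difference between the hairpins. With 1 control array per line and 1 overexpression array, no spread of their own can be given.

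**Figure D1:**
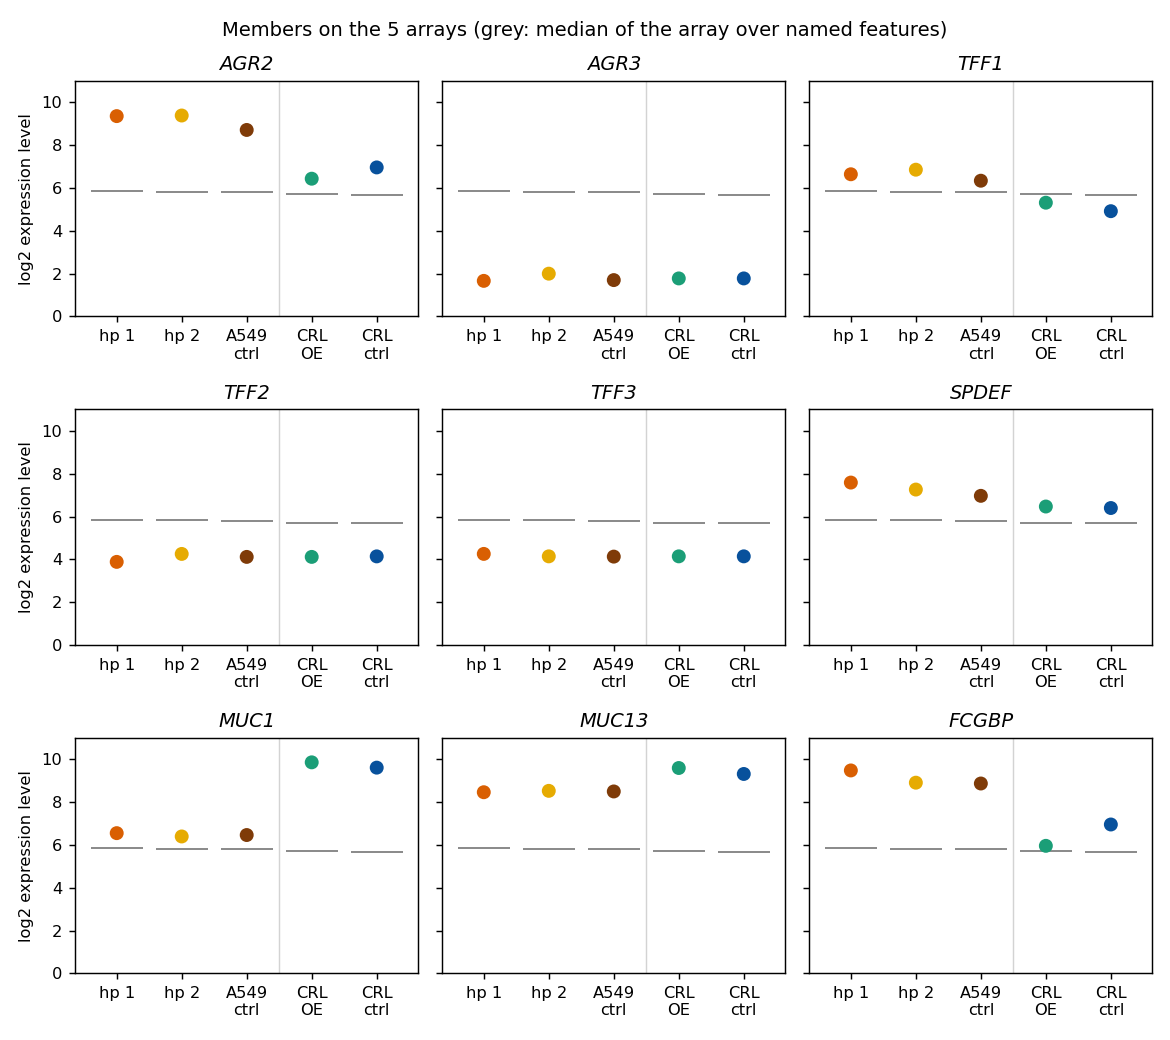
Log2 expression level of each of the 9 measured genes on the 5 arrays (hp, hairpin; ctrl, control; CRL, CRL-5907; OE, NEDD9 overexpression), 1 point per array, with the median of each array as a grey line. AGR2, TFF1, SPDEF and FCGBP are higher in A549, MUC1 and MUC13 are higher in CRL-5907, and AGR3, TFF2 and TFF3 lie under the grey lines on all 5 arrays.

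AGR2 was higher with both hairpins. Its level was 9.36 with hairpin 1 and 9.39 with hairpin 2, against 8.71 on the A549 control. Both knockdown arrays thus lay above the control, by 0.65 and 0.67, and differed from each other by 0.03, where the hairpin spread was 0.14. The mean difference was 0.66 ± 0.02 (SD, n = 2), or 1.58-fold, an SD that does not include the error of the shared control array. AGR2 was the one member at least 1.5-fold higher with both hairpins among the 6 above the median level, and 0 were lower. Over all 7473 genes above that level, 0.709% were higher and 0.134% lower by this rule, and 0.495% were at least as far above the control as AGR2 by the smaller of the hairpin differences. The call ended after a further quantile normalization (0.53 with hairpin 1 and 0.60 with hairpin 2) and with the level-dependent trend of the differences taken out (0.53 and 0.61), since 1.5-fold is 0.58.

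In CRL-5907 AGR2 lay on the other side of its control. Its level was 6.44 with NEDD9 overexpression against 6.96 on the control, a difference of -0.53 or 1.44-fold lower, which missed 1.5-fold. Among the 7406 genes of sufficient level, 1.31% lay at least as far below the control. A further quantile normalization moved the difference to -0.62, past 1.5-fold. AGR2 was therefore above control where NEDD9 was lowered in one line and below control where it was raised in the other, with no replicate of the second comparison and no test of the first. The control arrays did not show this opposite direction. NEDD9 (8.94 against 4.66) and AGR2 (8.71 against 6.96) were both higher on the A549 control than on the CRL-5907 control.

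Between the lines AGR2 was 3.36-fold higher on the A549 control than on the CRL-5907 control, a log2 difference of 1.75. The order of its levels was hairpin 2, hairpin 1, A549 control, CRL-5907 control and overexpression, and of these neighbours the hairpins alone differed by less than the hairpin spread. AGR3, which RefSeq places next to AGR2 on chromosome 7, could not be set against this pattern. Its levels were 1.66 and 2.00 with the hairpins against 1.70 on the A549 control, and 1.78 with overexpression against 1.78 on the CRL-5907 control. The last pair was exactly equal, which RMA can produce, and as all 5 values lay below the array median no difference of AGR3 was read.

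Among the trefoil factors, whose 3 genes are neighbours on chromosome 21, TFF1 was the one above the array median, and in A549 alone. TFF1, an oestrogen-inducible peptide of gastric and airway mucus, had levels of 6.64 and 6.86 with the hairpins against 6.34 on the A549 control. Both knockdown arrays were above the control, by 0.30 and 0.51 (mean 0.41 ± 0.15, SD, n = 2), but short of 1.5-fold. Its level in CRL-5907 was 5.32 with overexpression against 4.92 on the control, a difference of 0.40 between values that both lay below the median, so it entered no count there.

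No direction was read from the TFF1 values in CRL-5907, as for AGR3. The A549 control lay 1.42 above the CRL-5907 control, or 2.68-fold, a lower bound because the CRL-5907 value was not shown to exceed background. TFF2 and TFF3 stayed below the median on all 5 arrays, TFF2 between 3.88 and 4.25 and TFF3 between 4.13 and 4.25. TFF3 had the same value of 4.14 on 3 arrays (hairpin 2, overexpression and the CRL-5907 control), and TFF2 the same value of 4.11 on the A549 control and the overexpression array. ESR1, the oestrogen receptor gene, also lay below the median everywhere.

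SPDEF, the goblet cell regulator, was above the median on all 5 arrays. Its level was 7.59 with hairpin 1 and 7.26 with hairpin 2, against 6.97 on the A549 control. Both hairpins were above the control, but hairpin 1 (0.62) passed 1.5-fold and hairpin 2 (0.29) did not. The hairpins differed by 0.33, more than the hairpin spread of 0.16. With overexpression the level was 6.47 against 6.40 on the CRL-5907 control, a difference of 0.07 that was smaller than the hairpin spread and became -0.01 after a further quantile normalization. The A549 control lay 0.57 above the CRL-5907 control, or 1.48-fold.

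FCGBP had the widest range of the members, 3.52 over the 5 arrays. Its level was 9.48 with hairpin 1 and 8.91 with hairpin 2, against 8.87 on the A549 control. Hairpin 1 stood apart, 0.61 above the control, while hairpin 2 was 0.04 above it, so the mean of 0.32 ± 0.40 (SD, n = 2) describes neither hairpin. The hairpin arrays differed by 0.57, beside a hairpin spread of 0.14. Over the 7473 genes 0.629% had a hairpin 2 minus hairpin 1 difference at least as negative. Hairpin 1 alone put 3 members at 1.5-fold or more above the control (AGR2, SPDEF and FCGBP), where 2.57% of the 7473 genes were as high. Hairpin 2 alone put 1 there (AGR2), where 1.35% of genes were.

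With overexpression in CRL-5907 FCGBP was at 5.96 against 6.96 on the control, a difference of -0.997 or 1.996-fold lower. It was the one member counted as lower among the 5 above the median level in this line, with 0 higher, where 0.851% of all genes were lower and 3.5% higher by at least 1.5-fold. Of the 7406 genes 7 lay at least as far below the control, FCGBP included. The array medians there were 5.70 and 5.69, and FCGBP no longer entered the count with a filter at the 75th percentile. The A549 control lay 1.91 above the CRL-5907 control, or 3.77-fold.

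**Figure D2:**
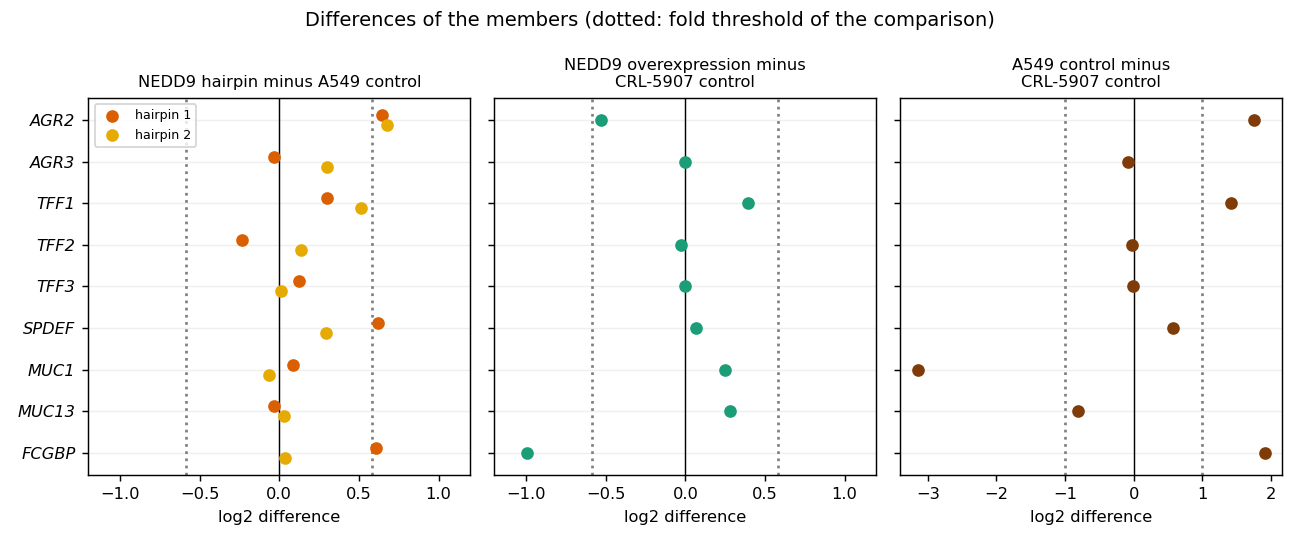
Log2 differences of the 9 measured genes, for each hairpin minus the A549 control (left), NEDD9 overexpression minus the CRL-5907 control (middle) and the A549 control minus the CRL-5907 control (right), 1 point per pair of arrays, with dotted lines at 1.5-fold (left, middle) and 2-fold (right). AGR2 is past 1.5-fold with both hairpins and at -0.53 with overexpression, FCGBP is past it with hairpin 1 and with overexpression, and MUC1 is at -3.15 between the lines.

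The membrane mucins went the other way between the lines and hardly differed with the hairpins. MUC1, a signalling mucin of the apical membrane, was at 6.55 and 6.40 with the hairpins against 6.47 on the A549 control. The control value lay between the hairpin values, with differences of 0.09 and -0.07, both under the hairpin spread of 0.14. In CRL-5907 MUC1 was at 9.86 with overexpression against 9.61 on the control, a difference of 0.25. Between the lines the log2 difference, A549 control minus CRL-5907 control, was -3.15, or 8.87-fold lower in A549, and 0.492% of the 7716 genes of sufficient level lay at least as far in that direction.

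MUC13, a membrane mucin best known from the gut, was at 8.46 and 8.53 with the hairpins against 8.50 on the A549 control. Its differences of -0.04 and 0.03 were likewise under the hairpin spread of 0.14. With overexpression it was at 9.60 against 9.32 on the CRL-5907 control, a difference of 0.28. Between the control arrays the difference was -0.82, or 1.76-fold lower in A549, which missed the 2-fold rule of this comparison and passed at 1.5-fold.

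Between the lines 3 members (AGR2, TFF1 and FCGBP) were at least 2-fold higher in A549 and 1 (MUC1) was at least 2-fold lower, of 6 above the median level in either control. Over all genes 9.88% were higher and 5% lower by this rule. TFF1 passed the level filter only through the A549 value in which it is high, so its count is no support. Among the 6573 genes above the median on both controls, a limit added after the values were seen, 2 of 5 members (AGR2 and FCGBP) were higher and 1 (MUC1) lower, beside 6.24% of genes higher and 3.1% lower. The control arrays of both lines also enter the other comparisons, so these differences are not separate evidence on the manipulations.

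**Figure D3:**
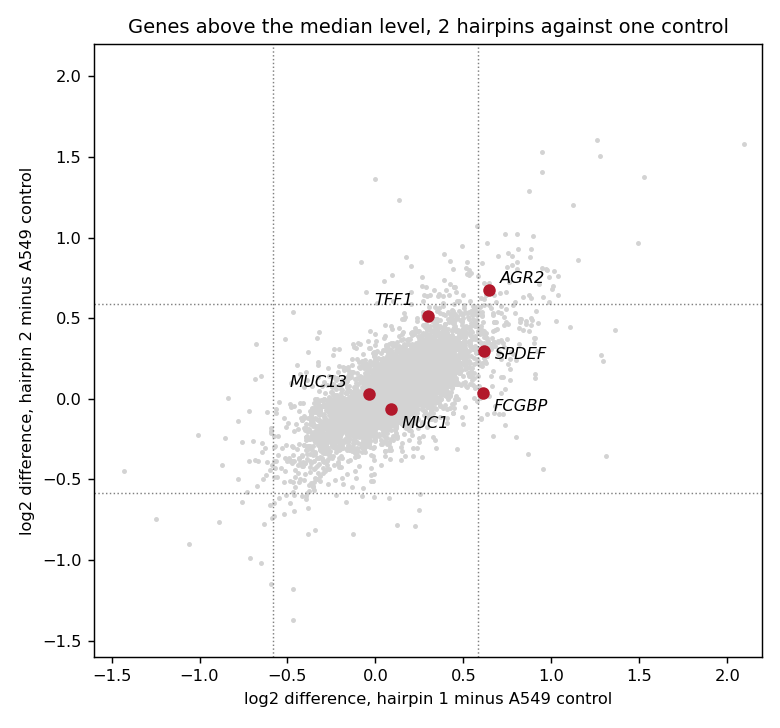
Log2 difference of hairpin 1 (horizontal) and hairpin 2 (vertical) from the single A549 control for the 7473 genes above the median level, 1 grey point per gene, with 6 members in red and dotted lines at 1.5-fold. AGR2 lies in the upper right corner region past both lines, SPDEF and FCGBP are past the line of hairpin 1 alone, and MUC1 and MUC13 lie near the origin.

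Genes that work with the members were described from 7 lists with 109 entries, of which 86 were measured. With the hairpins 0 of these passed 1.5-fold with both while above the median level. Each list held 0 to 12 genes above that level. Over all 7473 such genes 0.709% were higher and 0.134% lower by this rule, so a count of 0 is near those shares. limma, fitted to the hairpin and control arrays over 7473 genes with 1 residual degree of freedom, called 0% of them after Benjamini-Hochberg adjustment at 0.05 (lowest adjusted p = 0.276), while 1309 had an unadjusted p under 0.05. The median over those genes was 0.10 for hairpin 1 and 0.04 for hairpin 2, and the list values have to be read beside that offset.

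Of the gel-forming and other secreted mucins, MUC7 was the one measured, and it lay below the median on all arrays. Among the other membrane mucins MUC4, MUC15 and MUC17 were measured, and all 3 lay below the median throughout. Of the 13 measured goblet and secretory transcription factors, 9 were above the median level, and of these 7 were above the control with both hairpins and 0 below it with both. Over the 7473 genes of sufficient level 53.8% were above the control with both and 21.5% below it with both, by any amount. FOXA1, a pioneer factor of endodermal epithelium, was at 8.60 and 8.50 with the hairpins against 8.16 on the control (0.39 ± 0.07, SD, n = 2), and at 8.16 with overexpression against 8.48 on the CRL-5907 control. FOXA3, a goblet cell factor in mice, was at 6.17 and 6.06 against 5.74 (0.38 ± 0.08). The A549 control value of FOXA3 lay below the median. FOXA3 thus entered the count of 7 only through the hairpin values in which it is high. XBP1, which expands the secretory pathway, was at 9.92 and 9.72 against 9.50, and KLF4 at 6.13 and 6.13 against 5.87. With overexpression none of the 9 above the median passed 1.5-fold, and EHF, an epithelial ETS factor, was the furthest at 9.39 against 8.86. EHF was also the one factor past 2-fold between the lines, at 7.27 on the A549 control, against 8.86 in the CRL-5907 control. That was 1 of 8 factors that passed the level filter there, beside 5% of all such genes lower. FOXA3, at 5.74 on both controls, lay above the median in the CRL-5907 control alone and was not among the 8.

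The enzymes that build mucin O-glycans were mixed. Of 11 above the median level among 20 measured, 7 were above the control with both hairpins and 3 below it with both, beside those shares of 53.8% and 21.5%. C1GALT1, which makes the core 1 glycan, was at 7.24 and 7.48 with the hairpins against 6.79 on the control, and GALNT7, which acts on partly glycosylated peptides, at 7.60 and 7.37 against 6.99. GALNT14 was at 6.07 and 6.21 against 6.52. With overexpression GALNT2, an initiating transferase, was at 9.15 against 8.39 on the CRL-5907 control. It was the one enzyme past 1.5-fold among the 10 above the median level, beside 3.5% of all genes of sufficient level higher. Between the lines GALNT1, GALNT7, GALNT12, GALNT14 and GCNT3, a core-branching enzyme, were at least 2-fold higher in A549 (1.09 to 1.47). These were 5 of the 11 enzymes above the median level in either control, beside 9.88% of all such genes higher. GALNT14 lay below the median in CRL-5907 and passed the level filter only through the A549 value in which it is high. ST3GAL1, which caps core 1 with sialic acid, was at 7.14 on the A549 control, against 9.17 in the CRL-5907 control, 4.10-fold lower in A549. It was the one enzyme of the 11 at least 2-fold lower, beside 5% of all such genes.

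AGR2 belongs to the disulfide isomerases, of which with their oxidases 16 of 20 were measured. Of the 12 above the median level, 9 were above the control with both hairpins and 0 below it with both, by small amounts. Their medians were 0.17 with hairpin 1 and 0.10 with hairpin 2, beside 0.10 and 0.04 over all genes of sufficient level. TXNDC12, the relative of AGR2 and AGR3 that most tissues express, was at 9.59 and 9.50 against 9.38, and ERP29 at 8.67 and 8.63 against 8.43. No isomerase or oxidase passed 1.5-fold with overexpression (median 0.01). Between the lines 13 of all 16 measured were above the CRL-5907 control in A549, with a median of 0.41. Over all 14232 genes of any level the median was 0.01, and 51.8% were above it. Over the 7716 genes of sufficient level the median was 0.05. PRDX4, a peroxiredoxin of the endoplasmic reticulum, was at 7.24 on the A549 control, against 5.86 in the CRL-5907 control. It was the one past 2-fold of the 12 above the median level, beside 9.88% of all such genes higher. PDIA4 (0.97), PDIA6 (0.86) and PDIA5 (0.85) followed.

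Secretory products and exocytosis genes were mostly dim, with 16 of 25 measured below the median on every array. Of the 8 above the median level with knockdown, 4 were above the control with both hairpins and 2 below it with both. Over all genes of sufficient level those shares were 53.8% and 21.5%. UNC13B, a priming factor of exocytosis, was at 7.70 and 7.44 with the hairpins against 6.91 on the A549 control (0.66 ± 0.19, SD, n = 2), short of 1.5-fold with hairpin 2. The UNC13B values on both CRL-5907 arrays were exactly equal to that of the A549 control, which RMA can produce. BPIFB1, a secreted airway protein, was at 6.12 and 6.21 against 5.79, the control value lying just below the median. LYZ, which encodes lysozyme and was singled out after its values were seen, was at 5.55 and 5.34 with the hairpins against 3.55 on the control. All of these LYZ values lay below the median, so it was not counted. With overexpression MARCKS, which releases mucin granules when phosphorylated, was at 7.40 against 7.98 on the control, a difference of -0.58 that missed 1.5-fold. TCN1, a vitamin B12 carrier of secretions, was 9.23-fold higher on the A549 control (7.35) than on the CRL-5907 control (4.15), a lower bound. The granule protein VAMP8 went the other way, at 8.26 on the A549 control, against 10.63 in the CRL-5907 control.

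The 2 RAB27 genes, which dock secretory granules, were opposite between the lines. RAB27A in A549 lay below the median. RAB27B was at 9.18 on the A549 control, against 7.74 in the CRL-5907 control, and RAB27A at 5.56 on the A549 control, against 6.74 in the CRL-5907 control. Of the 8 measured partners and receptors, 6 lay below the median everywhere, among them MSLN, the ligand of MUC16. LYPD3, a reported surface partner of AGR2, was at 7.62 with overexpression against 6.98 on the CRL-5907 control (1.56-fold), while in A549 it lay below the median. LGALS3, a galectin that binds MUC1, was at 5.52 on the A549 control, against 7.08 in the CRL-5907 control, the A549 value below the median.

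**Figure D4:**
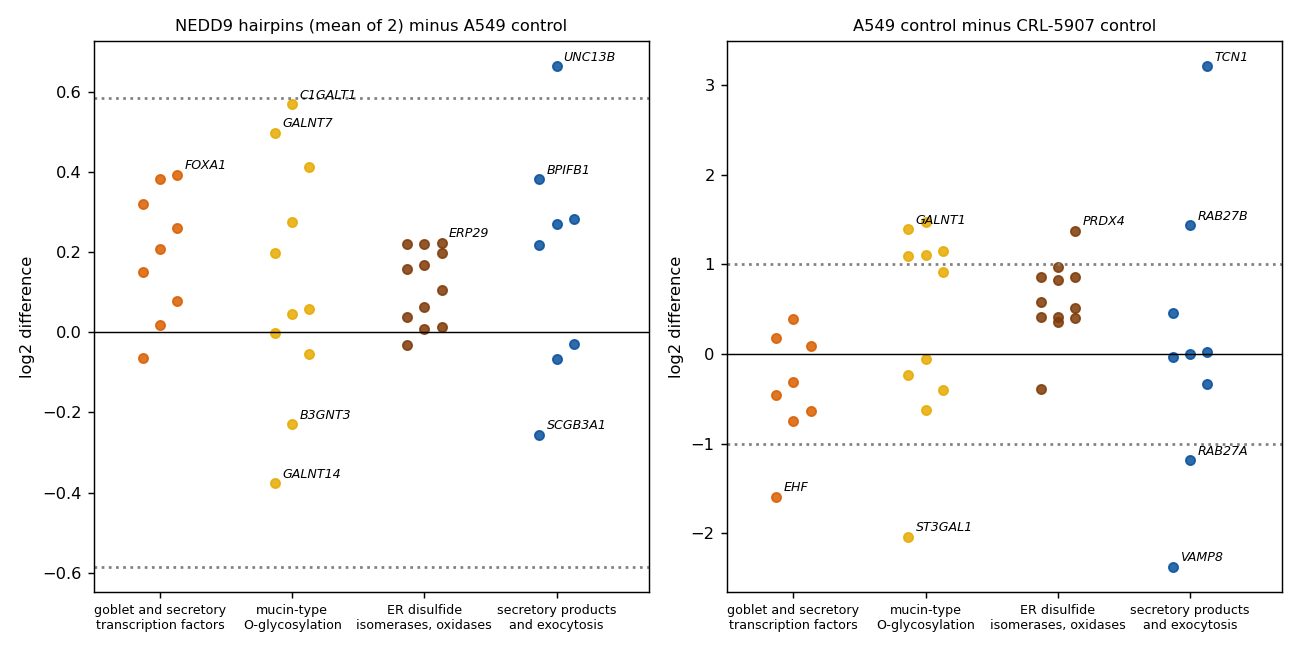
Log2 differences of genes from 4 lists that passed the level filter of the comparison, 1 point per gene, for the mean of both hairpins minus the A549 control (left, dotted lines at 1.5-fold) and the A549 control minus the CRL-5907 control (right, dotted lines at 2-fold), with selected genes named. The isomerase genes lie within 0.3 of the control on the left and mostly between 0.3 and 1 on the right, where TCN1 is at 3.21 and VAMP8 at -2.37.

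Both lines carried epithelial markers, with KRT8 at 11.04 to 11.76, KRT18 at 9.03 to 9.54 and CDH1 at 8.29 to 9.09 over the 5 arrays. Of 8 measured epithelial markers 4 were higher and 4 lower on the A549 control than on the CRL-5907 control. KRT8 (0.64), KRT18 (0.45), KRT19 (0.73) and CDH1 (0.50) were higher there. EPCAM (-1.44), CLDN4 and CLDN7 were at least 2-fold lower. These were 3 of the 7 above the median level in either control, beside 5% of all such genes lower. Both claudins lay below the median in A549, so their differences of -3.50 and -2.59 are lower bounds in size. They passed the level filter only through the CRL-5907 values in which they are high. ESRP1 lay below the median on all arrays. CLDN7 was also at 6.90 with overexpression against 7.49 on the control. The part of an overall difference in epithelial state in the values of the members was not tested. Of 9 measured ciliated cell markers 1 to 3 lay above the median per array, and FOXJ1, their defining regulator, lay below it on all 5. TPPP3, another of these markers, was at 8.11 and 7.18 with the hairpins against 6.76 on the A549 control, short of 1.5-fold with hairpin 2 (0.42). CAPS, the other ciliated marker above the median level with knockdown, was below the control with both hairpins (-0.07 and -0.22). The part of ciliated genes in the knockdown values was not tested. The leukocyte gene PTPRC was at 1.72 on all arrays, whereas CD68 (8.77 to 9.59) lay above the median on all 5 and CD14 on 4. Of 6 measured leukocyte markers 1 or 2 were above the median per array, and of 7 measured fibroblast markers 0 in A549 and 1 in CRL-5907. Of 4 measured basal cell markers 2 or 3 were above it per array.

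The genes with the pattern most like AGR2 were found by the root-mean-square distance between levels over the 5 arrays, each gene centred on its own mean, among 8039 genes above the median on at least 1 array. They were BTBD6 (distance 0.12), TMEM17 (0.14) and MYORG (0.15). BTBD6 was at 6.99 and 7.21 with the hairpins against 6.57 on the A549 control, and at 4.04 with overexpression against 4.54 on the CRL-5907 control, both below the median. The genes nearest to FCGBP, the member of widest range, were ST6GAL1 (0.16), CCPG1 (0.22) and CRIP1 (0.23). ST6GAL1, a sialyltransferase of N-glycans, was at 8.41 and 7.97 with the hairpins against 7.82 on the A549 control. With overexpression it was at 5.21, below the median, against 5.74 on the CRL-5907 control. CCPG1 and CRIP1 lay below the median on both CRL-5907 arrays. The likeness of all these genes to AGR2 or FCGBP was set by the search over the same 5 arrays. These distances are descriptions over 5 arrays from 2 lines.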

How the data were processed

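Per the submitters' processing notes, the deposited log2 values were made by the authors with RMA and Affymetrix Power Tools (versions not given in the sources used here), which background-corrects, normalises and summarises the probes of a transcript cluster. Such a value can average isoforms, and RMA can give arrays exactly equal values. The log base was read from the values (0.58 to 13.09). Array number limits the precision. The genome build of the array annotation is not given in the sources used here.

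Samples were grouped by title. The description of the hairpin 2 sample names NEDD10, and its title, which says NEDD9, was followed. Of 22011 features 14432 had 1 gene symbol, 2408 several and 5171 none. 14404 matched RefSeq by Entrez number. A gene entered the counts of a comparison if its highest level there exceeded the median of named features on the same array. With equal levels on both controls, the A549 median was used. Fold thresholds were 1.5 for the manipulations (both hairpins) and 2 between the controls. limma 3.58.1 (R 4.3.3, eBayes with a trend) was fitted to knockdown over all genes passing the level filter. The steps were tested on simulated data. Differences between single arrays got no test.

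The members, lists, motifs and named genes were chosen with earlier results of these data known. All members were named. From each list, the genes past a threshold and up to 4 further genes with the largest differences could be named, as well as the 3 genes nearest to AGR2 and to the member of widest range. The other listed genes named as markers, for a tie to a member, or because their whole list was dim, fall outside this rule. Alternatives were median centring, a further quantile normalization, removal of the lowess trend with level (span 0.3), averaging the features of a gene, no filter or one at the 75th percentile, another fold threshold, each hairpin alone, a filter on both controls (added after the data were seen), and limma without a trend or filter.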

Additional observations from a re-analysis of the deposited data

How the results depend on the processing

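The count of 1 member higher with both hairpins (AGR2) became 0 after a further quantile normalization, 0 with the level-dependent trend taken out and 0 at a 2-fold threshold, and a single hairpin gave 1 (without replicate 1) to 3 (without replicate 2). The count of 1 lower with overexpression (FCGBP) became 2 after a further quantile normalization, with AGR2, and 0 with a filter at the 75th percentile or at a 2-fold threshold. The count of 1 lower in A549 between the controls became 2 at a 1.5-fold threshold, with MUC13. The thresholds and filters act by their own construction, and for the normalizations the cause was not tested. The other counts of members were within 1.5 times of their values under these alternatives, and limma called 0 genes with or without a trend or filter. Of the 27 member differences none past a threshold changed sign with any normalization. The mean of the features moved none because each member has 1 feature. Small differences below the thresholds changed sign or moved off 0 for 3 to 4 members per normalization. MUC1 with knockdown was among them, while AGR3 and TFF3 with overexpression started from exactly 0. No paired analysis was possible because the hairpin numbers have no counterpart among the controls.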
